A study of Rattus norvegicus with 6 samples.

Results

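Matricellular proteins are secreted into the extracellular matrix (ECM), where they act on cells through integrins, CD36, CD47 and proteoglycans and contribute little to its tensile strength. The provisional matrix is the fibronectin-rich scaffold that is laid down early in repair. In blood vessels, these proteins are known for their rise after injury and stretch and during the growth of a neointima. The genes followed here were 10 of the 17833 genes in the deposited table, taken by gene symbol: Spp1, Tnc, Postn, Thbs1, Thbs2, Thbs4, Sparc, Ccn1, Ccn2 and Fn1. All 10 were found, and all 10 passed the filter on low expression.

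The genes were measured by bulk RNA-seq in pulmonary veins (PVs), from 3 rats whose veins had been banded on both sides (bilateral pulmonary vein banding, BPVB) and from 3 rats after sham surgery, all wild-type Sprague-Dawley (SD in the labels). Surgery took place at postnatal day 1 and the PVs, from the right upper lobe, were collected at postnatal day 21. Sham rats went through the same operation without a band being tied. The band was tied around a padding needle that was then withdrawn, so the needle set the width of the lumen. Expression was given as FPKM (fragments scaled by gene length and library total), and library totals ran from 26078189 to 29725808 fragments in the BPVB group and from 23439506 to 23821184 in the sham group, so that every BPVB library was the deeper one. The part of depth in the results was not tested. Groups were compared with limma on log2(FPKM + 0.5), two-sided, and Benjamini-Hochberg adjustment covered the 15150 genes whose mean FPKM reached 0.1. A gene was called higher or lower at an adjusted p under 0.05.

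In the BPVB group, 8 of the 10 genes were higher and 2 were lower. Among all tested genes, 17.2% were higher and 14.3% were lower by the same rule. The 10 genes were chosen with earlier results of these data known, so these shares do not test the group as a whole. By fold change, Spp1 rose by far the most, followed by Thbs1, Postn and Fn1, whereas Tnc and Ccn1 fell. The median log2 fold change of the 10 genes was 0.39, beside 0.02 over all tested genes. The 3 BPVB values lay wholly above the 3 sham values for 8 of the 10 genes and wholly below them for 2, as they did for 45.6% of the tested genes (25.2% above and 20.5% below). With the study's thresholds for differentially expressed genes (DEGs), which also ask for an absolute log2 fold change above 1, Spp1 alone was left. Of the tested genes, 2.24% were DEGs on the higher side and 1.03% on the lower side. The study set these thresholds on DESeq2 results, so DEGs here, from limma, are not the study's own list.

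**Figure D1:**
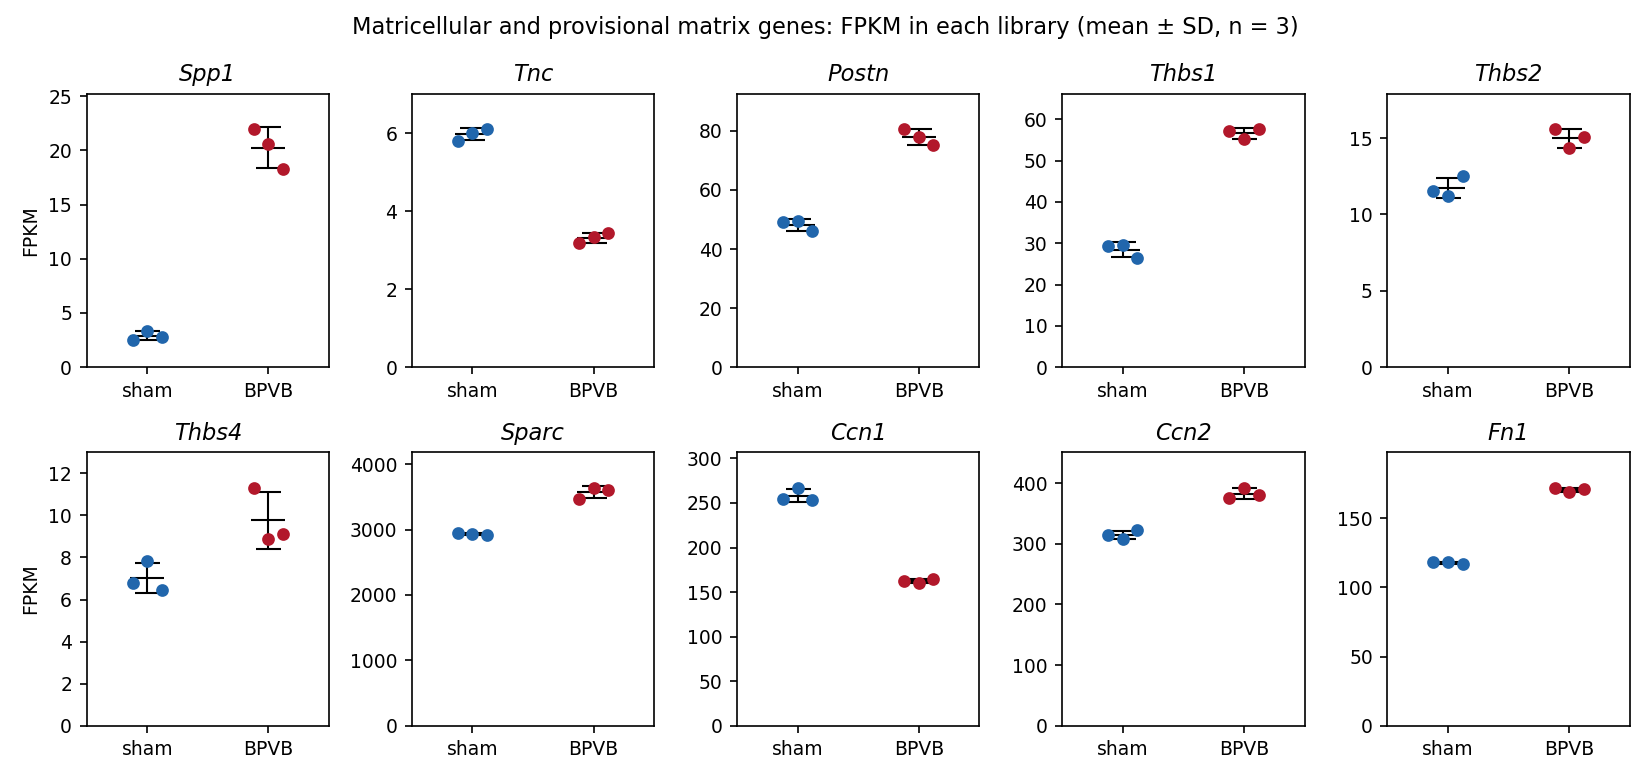
FPKM (vertical axes, each from 0) of the 10 genes in the 3 sham and 3 BPVB libraries, 1 point per library, with the mean and SD of each group. The groups do not overlap in any panel, and Tnc and Ccn1 are the panels in which the BPVB points lie below the sham points.

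Together the 10 genes took 0.892%, 0.890% and 0.883% of the fragments in the sham libraries, which grew to 1.07%, 1.10% and 1.10% under BPVB. Their summed FPKM was 4372, 4543 and 4501 in the BPVB group and 3741, 3732 and 3704 in the sham group. Most of this sum was Sparc. Without Sparc it was 899, 902 and 895 against 792, 801 and 792, so the BPVB libraries were also higher for the other 9 genes together.

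Spp1 (NCBI Gene 25353) encodes osteopontin, a secreted integrin and CD44 ligand made by macrophages, smooth muscle cells and epithelium. Its FPKM was 22.0, 20.6 and 18.3 after BPVB and 2.54, 3.35 and 2.75 after sham surgery, with 825 to 902 fragments behind each BPVB value and 93 to 121 behind each sham value. The lowest BPVB library was far above the highest sham library. The mean rose from 2.88 ± 0.421 to 20.3 ± 1.87 (SD, n = 3 each), a 7.02-fold difference. By limma its log2 fold change came to 2.62 (standard error, SE, 0.11, adjusted p = 4.8e-07), and 22 of the tested genes rose by more.
Of 11 tested macrophage genes, 8 were higher, none was lower, and Trem2, Cd9 and Fabp5 did not pass the test. Their summed FPKM was 1059 to 1068 in the BPVB group and 568 to 571 in the sham group. Most of that difference was Lyz2, the lysozyme gene, with 592 ± 15.5 against 163 ± 3.85 FPKM (SD, n = 3 each), and without it the sums were 456 to 494 and 404 to 411. Gpnmb, a gene of lipid-laden and tissue-remodelling macrophages, had an FPKM of 16.9, 17.5 and 19.8 against 4.56, 4.05 and 4.38. The log2 fold change of Trem2 was 0.25 (adjusted p = 0.40, limma), and it ranged from 0.063 to 0.42 with 1 library left out. All 8 alveolar type 2 genes were higher, with a summed FPKM of 552 to 598 against 61.5 to 63.0. Of 7 alveolar type 1 genes, 5 were higher, and Hopx (log2 fold change -0.26) and Cav1 (-0.11) were lower. No tested macrophage or alveolar type 2 gene was at 0 in all libraries of a group. The part of these cells in the rise of Spp1 was not tested, and in bulk tissue a change in the number of cells cannot be told apart from a change in RNA per cell.
By the profile over the 6 libraries, the genes most like Spp1 among 8400 candidates averaging an FPKM of 5 or more were Cdkn1a (Euclidean distance 0.29 on the centred log2 scale), the MHC class II gene RT1-Bb (0.36) and the alveolar type 1 gene Ager (0.38). Cdkn1a encodes the cyclin-dependent kinase inhibitor p21.

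The thrombospondins are large calcium-binding glycoproteins, of which Thbs1 and Thbs2 form trimers that inhibit angiogenesis through CD36 and CD47, and Thbs4 forms pentamers. Thbs1 (NCBI Gene 445442), also an activator of latent TGF-β, had an FPKM of 57.1, 55.2 and 57.6 in the BPVB group and 29.3, 29.7 and 26.4 in the sham group. The lowest BPVB value was far above the highest sham value. The mean was 56.6 ± 1.28 against 28.5 ± 1.78 (SD, n = 3 each), or 1.99-fold, and the log2 fold change was 0.98 (SE 0.051, adjusted p = 1.7e-06, limma), just short of the DEG threshold.
Thbs2 (NCBI Gene 292406) had an FPKM of 15.6, 14.3 and 15.1 against 11.5, 11.2 and 12.5. The highest sham library came near the lowest BPVB library. The rise was 1.28-fold (log2 fold change 0.34, SE 0.064, adjusted p = 0.0035, limma).
Thbs4 (NCBI Gene 29220) had an FPKM of 11.3, 8.86 and 9.12 in the BPVB group and 6.80, 7.83 and 6.45 in the sham group. BPVB replicate 1 stood above the other two BPVB libraries. The rise was 1.39-fold (log2 fold change 0.44, SE 0.11, adjusted p = 0.014, limma), and Thbs4 had the widest relative spread of the 10 genes in the BPVB group, with an SD of 13.9% of the mean. Of the other thrombospondin genes, Thbs3 (log2 fold change 0.10) and Comp (0.34) did not pass the test (adjusted p = 0.37 and 0.20, limma), and Comp had a mean of only 0.406 and 0.209 FPKM.
A ratio of 2 genes within a library depends little on the scaling between libraries, apart from the 0.5 that is added, and 7 pairs were compared in this way on log2(FPKM + 0.5). The log2 ratio of Thbs1 to Thbs2 was 1.84, 1.91 and 1.90 in the BPVB group and 1.31, 1.37 and 1.05 in the sham group, without overlap. The BPVB mean was higher by 0.64 (exact permutation test, two-sided, p = 0.1, which is the lowest that 3 against 3 can give, and 0.117 adjusted over the 7 pairs, as for every pair without overlap). The ratio of Thbs1 to Thbs4 was likewise higher, by 0.54, without overlap (exact permutation p = 0.1). The ratio of Thbs4 to Thbs2 overlapped between the groups (difference 0.10, SD 0.137 and 0.207, exact permutation p = 0.4). The difference for Thbs4 and Thbs2 was smaller than the spread between libraries and fell to 0.0023 without sham replicate 3 and 0.023 without BPVB replicate 1.

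CCN proteins are secreted, cysteine-rich integrin ligands whose genes respond to stretch, to TGF-β and to YAP, the transcriptional coactivator of the Hippo pathway that works with TEAD factors. Ccn1 and Ccn2, formerly Cyr61 and Ctgf, are the classic YAP and TEAD targets, and here they moved in opposite directions. Ccn1 (NCBI Gene 83476) had an FPKM of 162, 160.2 and 165 in the BPVB group and 254, 267 and 253 in the sham group. Every sham library was higher than every BPVB library, and the sham mean of 258 ± 7.72 was 1.59 times the BPVB mean of 162 ± 2.48 (SD, n = 3 each). The limma estimate of its log2 fold change was -0.67 (SE 0.030, adjusted p = 7.6e-07).
Ccn2 (NCBI Gene 64032) had an FPKM of 375, 392 and 381 in the BPVB group and 315, 308 and 322 in the sham group. The BPVB libraries were the higher ones here, by 1.22-fold (log2 fold change 0.28, SE 0.028, adjusted p = 9.3e-05, limma). Within a library, the log2 ratio of Ccn1 to Ccn2 was -1.21, -1.29 and -1.20 in the BPVB group and -0.31, -0.20 and -0.35 in the sham group. In plain terms, there was 0.425 ± 0.014 FPKM of Ccn1 per FPKM of Ccn2 in the BPVB group and 0.821 ± 0.042 in the sham group (SD, n = 3 each). The groups did not overlap (difference -0.95, exact permutation test, p = 0.1).
The proximal promoters of both genes are printed because the genes are close relatives with a shared upstream pathway and opposite changes, and that of Spp1 because it had the largest rise. They are the 250 bases before the transcription start in RefSeq (build GRCr8), written 5′ to 3′ on the gene's strand. Capitals mark TATAAA on the gene's strand, the letters of a TATA box, and the core of the TEAD motif (GGAATG on either strand, which reads CATTCC on the other).
Ccn1 promoter, chr2:237225690-237225939, strand -: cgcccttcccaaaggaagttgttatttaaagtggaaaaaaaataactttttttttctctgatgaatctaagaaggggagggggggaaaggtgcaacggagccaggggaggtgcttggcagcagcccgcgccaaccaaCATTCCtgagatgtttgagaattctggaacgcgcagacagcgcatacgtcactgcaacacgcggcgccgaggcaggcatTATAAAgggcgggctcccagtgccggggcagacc
Ccn2 promoter, chr1:22624615-22624864, strand -: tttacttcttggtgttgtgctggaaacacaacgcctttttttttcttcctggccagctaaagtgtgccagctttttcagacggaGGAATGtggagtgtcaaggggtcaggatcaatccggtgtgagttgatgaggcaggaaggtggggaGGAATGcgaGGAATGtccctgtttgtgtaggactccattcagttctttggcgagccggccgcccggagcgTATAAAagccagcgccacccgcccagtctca
Spp1 promoter, chr14:5619805-5620054, strand -: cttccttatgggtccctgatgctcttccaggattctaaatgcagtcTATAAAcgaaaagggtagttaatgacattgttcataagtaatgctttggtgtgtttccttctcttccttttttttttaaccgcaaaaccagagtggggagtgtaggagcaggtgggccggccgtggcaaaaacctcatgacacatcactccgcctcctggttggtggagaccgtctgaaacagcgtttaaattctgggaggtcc
The Ccn2 window held 3 matches to GGAATG, at 166 to 161, 101 to 96 and 92 to 87 bases before the start, and the Ccn1 window held 1, at 113 to 108 bases before it. Both had TATAAA close to the start, at 34 to 29 bases in Ccn1 and 31 to 26 bases in Ccn2. The Spp1 window had TATAAA only at 204 to 199 bases and no GGAATG. Promoters were found for 8 of the 10 genes, and not for Thbs2 and Fn1. GGAATG was present in 5 of these 8 (Thbs1, Thbs4, Sparc, Ccn1 and Ccn2), against 12.1% of all 33469 promoters of the same length. Of those 5 genes, Ccn1 fell and the others rose. TATAAA was present in 5 of the 8 and in 8.05% of all promoters. Neither TGANTCA, the AP-1 motif, nor the CArG box of serum response factor was found in the 8 windows, and they were present in 6.34% and 1.497% of all promoters.
Other CCN genes rose with Ccn2. Ccn5, an inhibitor of smooth muscle cell growth, had an FPKM of 49.3, 44.8 and 47.5 against 18.9, 21.5 and 18.9 and was a DEG (log2 fold change 1.24, SE 0.061, adjusted p = 1.4e-06, limma). Ccn3, with 294 ± 3.80 against 163 ± 5.79 FPKM (SD, n = 3 each), had a log2 fold change of 0.85, and Ccn4 one of 0.90. Ccn6, with a mean of 0.0403 against 0.174 FPKM and no overlap, did not pass the test (log2 fold change -0.31, adjusted p = 0.20, limma), and its value was -0.17 with a pseudocount of 1 and -0.92 with 0.1.
Among the YAP and TEAD genes, Yap1 itself had a log2 fold change of 0.26 (adjusted p = 6.5e-04, limma), and the related coactivator gene Wwtr1 did not pass the test (0.02, adjusted p = 0.83). Of 10 listed targets other than the CCN genes, 6 were higher and 1 was lower, and their median was 0.15. Ankrd1, also a stretch gene of cardiac muscle, rose the most, from 969 ± 3.99 to 2214 ± 21.0 FPKM (SD, n = 3 each, log2 fold change 1.19), and Crim1 was the lower gene (-0.22).
Ccn1 is also an immediate-early gene, and most genes of that group were lower too. Of 18 immediate-early genes, 14 were lower under BPVB and 2 were higher, and the list had a median of -0.83 on the log2 scale. Their summed FPKM was 720.4 to 727 in the BPVB group and 1398 to 1426 in the sham group. Fosb (log2 fold change -1.85), Fos (-1.72), Junb (-1.52), Ier2 (-1.32) and Egr1 (-1.13) were DEGs, and Fosl1 (0.79) and Atf3 (0.74) were the 2 that rose. Atf3 had 7.01, 8.00 and 9.21 against 4.47, 5.31 and 4.13 FPKM (adjusted p = 0.0017, limma). Fosl1 was the less stable, since its call was lost without BPVB replicate 1 or 2 or sham replicate 1 or 3 (adjusted p up to 0.077, limma). The part of this shared fall in the change of Ccn1 was not tested.

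**Figure D2:**
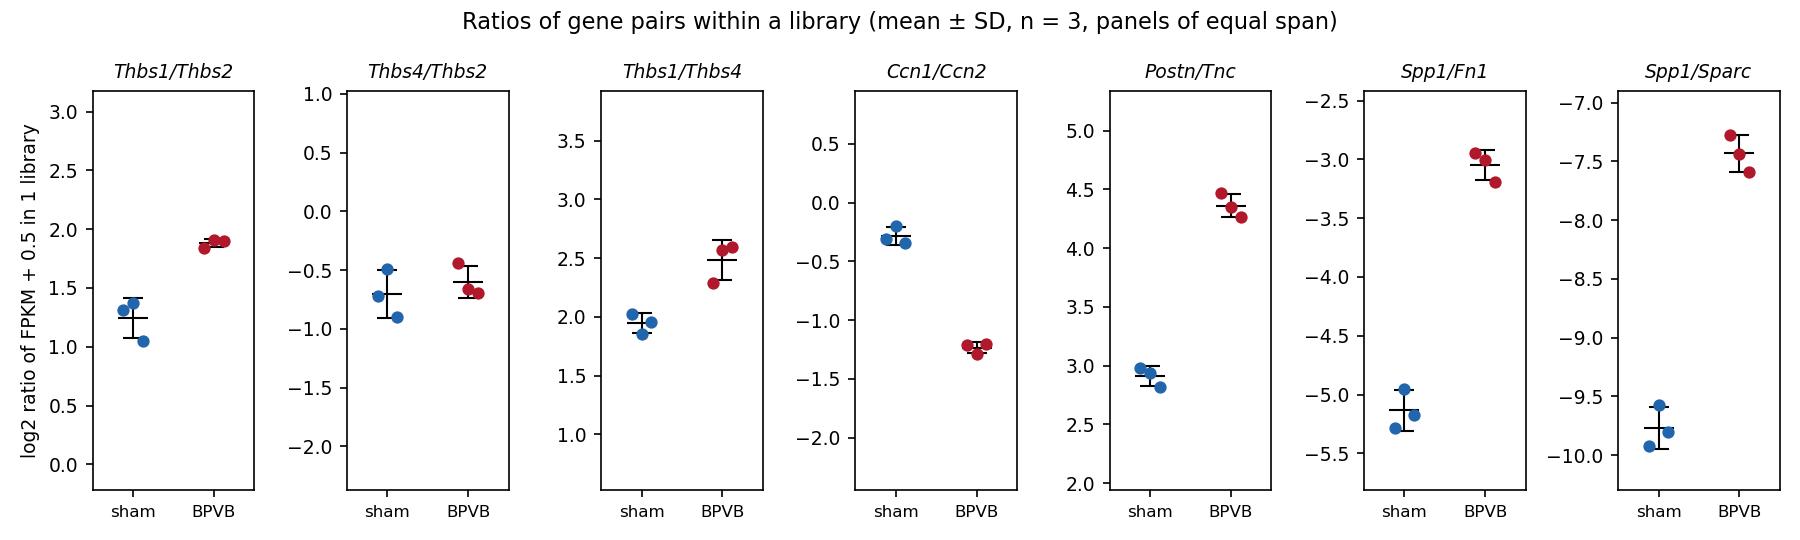
Log2 ratio of FPKM + 0.5 between 2 genes of the same library (vertical axes, equal span in all 7 panels), 1 point per library, with the mean and SD of each group. The groups separate in 6 panels and overlap for Thbs4 and Thbs2, and the ratio of Ccn1 to Ccn2 is the one that is lower in the BPVB group.

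Tnc (NCBI Gene 116640) encodes tenascin C, an anti-adhesive glycoprotein of developing, injured and stretched tissue. By fold change, it had the largest fall among the 10 genes. Its FPKM was 3.17, 3.34 and 3.44 in the BPVB group and 5.79, 6.01 and 6.10 in the sham group. The sham mean of 5.97 ± 0.158 was 1.80 times the BPVB mean of 3.32 ± 0.134 (SD, n = 3 each), and the log2 fold change was -0.76 (SE 0.083, adjusted p = 1.5e-04, limma). The related genes Tnn and Tnr were below the filter on low expression. The genes most like Tnc in profile, among 8401 candidates, were Tcap (distance 0.06), which encodes a sarcomere protein, Atp5mc1 (0.06), which encodes an ATP synthase subunit, and the smooth muscle actin gene Actg2 (0.09).
Postn (NCBI Gene 361945) encodes periostin, a product of activated fibroblasts that binds integrins and promotes collagen crosslinking. Its FPKM was 80.6, 77.9 and 75.3 in the BPVB group and 49.1, 49.5 and 46.0 in the sham group. The rise was 1.62-fold, from 48.2 ± 1.93 to 77.9 ± 2.65 (SD, n = 3 each), with a log2 fold change of 0.69 (SE 0.042, adjusted p = 4.9e-06, limma). Postn and Tnc are often described together in remodelling tissue. Here their log2 ratio rose from 2.98, 2.94 and 2.82 in the sham libraries to 4.47, 4.35 and 4.27 in the BPVB libraries, without overlap (difference 1.45, exact permutation test, p = 0.1).

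Fn1 (NCBI Gene 25661) encodes fibronectin, the main component of the provisional matrix. Its FPKM was 172, 169 and 171 in the BPVB group and 118, 119 and 117 in the sham group, with the narrowest relative spread of the 10 genes in the BPVB group (SD 0.954% of the mean). The rise was 1.45-fold (log2 fold change 0.53, SE 0.026, adjusted p = 1.2e-06, limma). Spp1 outpaced it. The log2 ratio of Spp1 to Fn1 was -2.94, -3.01 and -3.19 in the BPVB group and -5.28, -4.95 and -5.17 in the sham group (difference 2.09, exact permutation p = 0.1).
Sparc (NCBI Gene 24791) encodes a collagen-binding glycoprotein that guides the assembly of collagen fibrils. It was by far the most abundant of the 10 and ranked 8 of all genes by mean FPKM. Its FPKM was 3473, 3641 and 3606 in the BPVB group and 2949, 2931 and 2912 in the sham group. The rise was 1.22-fold (log2 fold change 0.29, SE 0.022, adjusted p = 2.0e-05, limma). In absolute terms the mean difference of 643 FPKM was the largest of the 10 genes.
The relatives of Sparc changed in both directions. Smoc1 was a DEG on the higher side, with an FPKM of 32.6, 31.4 and 34.0 against 16.1, 15.1 and 15.9 (log2 fold change 1.04). Smoc2 was a DEG on the lower side, with 5.65, 6.58 and 6.27 against 16.8, 16.03 and 16.7 (-1.35). The 2 genes were close in level in the sham group and far apart in the BPVB group, and their ratio was not tested. Sparcl1, expressed by vascular cells, was lower (-0.41, from 439 ± 2.26 to 330.2 ± 4.59 FPKM, SD, n = 3 each). Spock2 was higher (0.76), and Spock1, with a mean of 0.272 FPKM in the sham group and 0.0187 in the BPVB group, was lower (-0.56 with the pseudocount of 0.5, and -0.32 with 1 and -1.59 with 0.1), a call that was lost without any 1 of the BPVB libraries or without sham replicate 2 (adjusted p up to 0.101, limma).

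**Figure D3:**
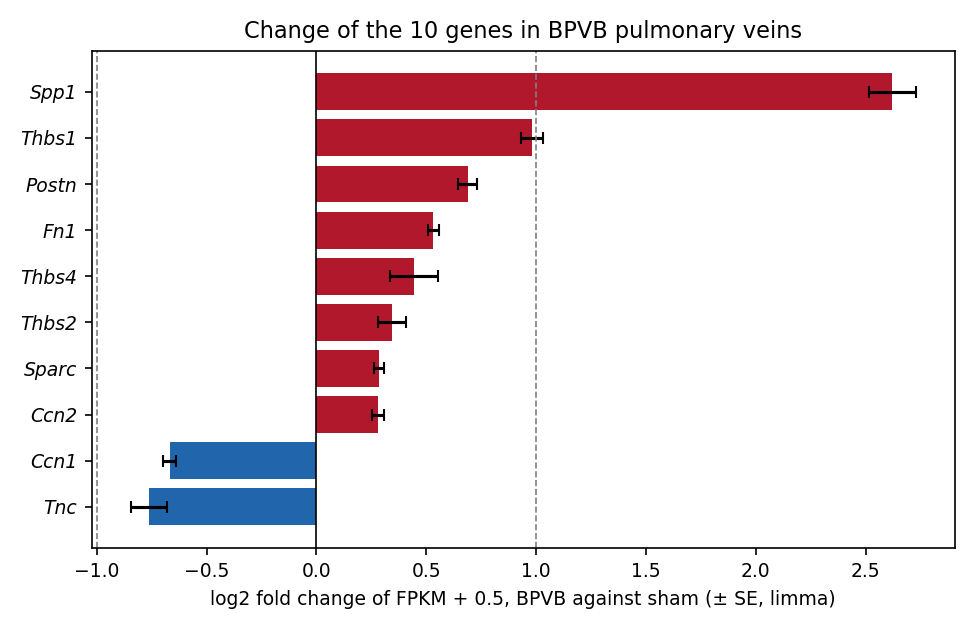
Log2 fold change of FPKM + 0.5 in the BPVB group against the sham group (horizontal axis, bars from 0, error bars the limma standard error) for the 10 genes. Dashed lines mark an absolute log2 fold change of 1, which Spp1 alone passed, and Thbs1 ended at 0.98.

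Since FPKM is scaled by gene length, the levels of the genes can be ordered. In the sham group the order of mean FPKM was Sparc, Ccn2, Ccn1, Fn1, Postn, Thbs1, Thbs2, Thbs4, Tnc and Spp1. In the BPVB group it was Sparc, Ccn2, Fn1, Ccn1, Postn, Thbs1, Spp1, Thbs2, Thbs4 and Tnc. Spp1 moved from place 10 to place 7, above Thbs2, Thbs4 and Tnc, and Fn1 and Ccn1 changed places. In both groups the 3 values of each gene lay wholly above those of the next gene in the order. In relative terms, the narrowest of these gaps in the BPVB group lay between Fn1 (lowest 169) and Ccn1 (highest 165), and Tnc (highest 6.10) and Thbs4 (lowest 6.45) were also close in the sham group.

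**Figure D4:**
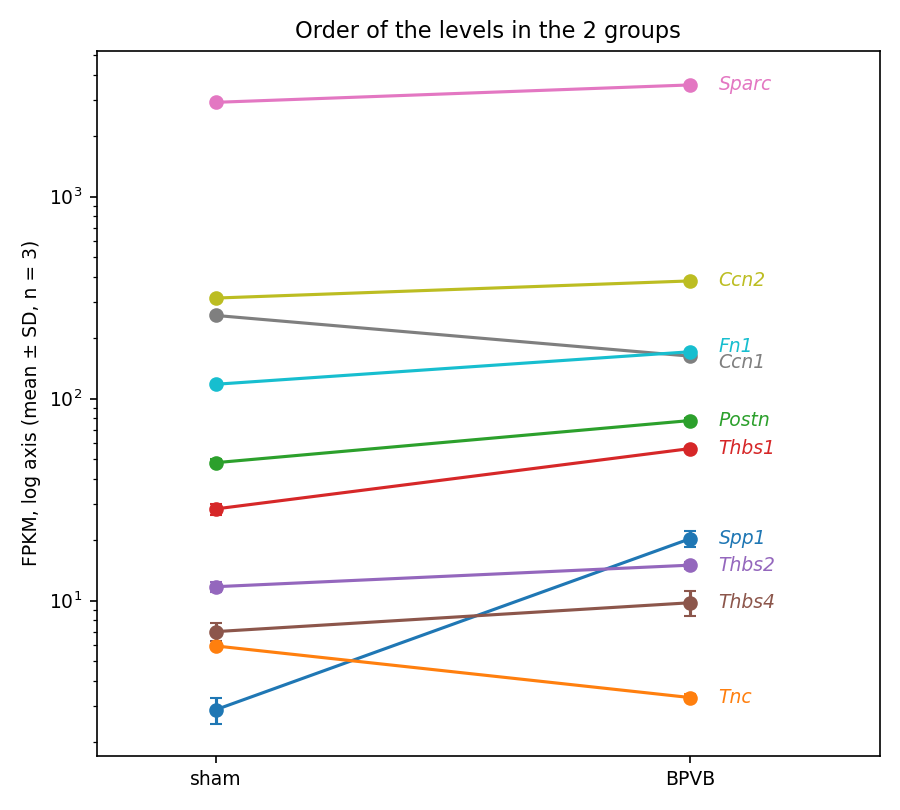
Mean FPKM with SD (n = 3, vertical log axis) of the 10 genes in the sham group (left) and the BPVB group (right), joined by a line for each gene. Spp1 crosses the lines of Tnc, Thbs4 and Thbs2, and the lines of Fn1 and Ccn1 cross each other.

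In the deposited Gene Ontology annotation, 9 of the 10 genes carried the extracellular matrix term, which 1.56% of the annotated tested genes carried, and Spp1 was the gene without it. Heparin binding was given for 7 genes (Postn, the 3 thrombospondin genes, both CCN genes and Fn1), and integrin binding for 6 (Spp1, Thbs1, Thbs4, both CCN genes and Fn1). Both of the genes that fell carried the terms for the extracellular matrix and cell adhesion, as did 5 of the 8 that rose. Negative regulation of angiogenesis was given for Thbs1, Thbs2, Thbs4 and Sparc, all of which were higher.

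Of 40 other matricellular and provisional matrix genes, 39 were in the table and 34 passed the filter. A total of 17 were higher, 6 were lower and 11 did not pass the test, and the median log2 fold change was 0.26. Besides Ccn5, Smoc1 and Smoc2, the DEGs were Vtn, Bgn and Spon2. Vtn, which encodes the adhesive plasma glycoprotein vitronectin, had the largest fall on the log2(FPKM + 0.5) scale, with 13.7, 16.5 and 12.1 FPKM in the BPVB group and 39.7, 37.3 and 37.6 in the sham group (log2 fold change -1.42, adjusted p = 9.0e-06, limma). The provisional matrix gene Fn1 and Vtn thus moved in opposite directions. Bgn, which encodes the proteoglycan biglycan, had a log2 fold change of 1.08, and Spon2, which encodes a secreted F-spondin relative, one of 1.09.
Of 16 receptor genes for these proteins, 9 were higher and 1 was lower, and the median was 0.22. Itga8, whose integrin binds fibronectin, osteopontin and tenascin C, had the largest log2(FPKM + 0.5) fold change (1.14), from 18.4 ± 0.774 to 41.2 ± 2.07 FPKM (SD, n = 3 each). By the ratio of mean FPKM, Itgb6 (3.90-fold, from 0.144 to 0.563 FPKM) and Cd36 (2.32-fold) were ahead of Itga8 (2.23-fold), though Itgb6 lost its call without BPVB replicate 2 or sham replicate 2 or 3 (adjusted p up to 0.066, limma). Cd36, a thrombospondin receptor, was the other DEG (1.12), with 18.0, 30.3 and 16.7 FPKM after BPVB and 9.59, 8.75 and 9.70 after sham surgery, and without BPVB replicate 2 its log2 fold change was 0.86, short of the DEG threshold. The osteopontin receptor gene Cd44 (log2 fold change 0.04), the fibronectin receptor gene Itga5 (-0.01) and Itga9 (0.03) did not pass the test (adjusted p = 0.63, 0.88 and 0.86, limma). Sdc1 was the lower gene (-0.15, adjusted p = 0.0496, limma), a call that was lost when any 1 of 5 libraries was left out (adjusted p up to 0.152).
Of 16 genes of TGF-β signalling and of YAP and serum response factor regulation, 5 were higher, none was lower and 11 did not pass the test, with a median of 0.06. Smad3 rose the most (log2 fold change 0.71, adjusted p = 3.2e-04, limma), and Tgfb1 had a log2 fold change of 0.25.

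**Figure D5:**
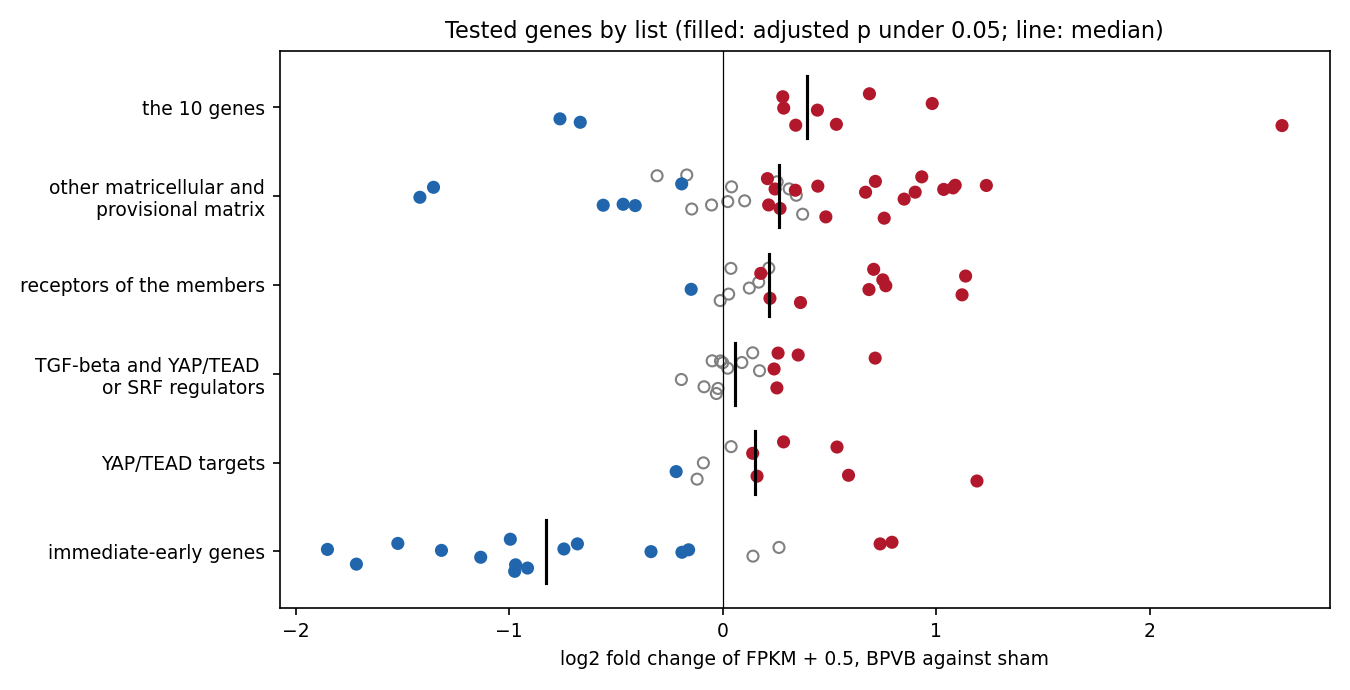
Log2 fold change of FPKM + 0.5 in the BPVB group against the sham group (horizontal axis) of every tested gene in the 6 lists (rows), 1 point per gene. Filled points had an adjusted p under 0.05, and vertical lines mark the medians, which lie above 0 except for the immediate-early genes (-0.83).

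The labelled tissue was checked with marker genes. Genes of smooth muscle, endothelium, fibroblasts and the atrial muscle of the myocardial sleeve were well expressed in each library, and the summed FPKM of each list did not overlap between the groups. It was 4668 to 4711 in the BPVB group and 5026 to 5089 in the sham group for smooth muscle, and 1060.1 to 1077 against 1207 to 1215 for endothelium. It was 7081 to 7115 against 6164 to 6206 for fibroblasts, and 14472 to 14893 against 19111 to 19478 for atrial muscle. In the BPVB group, 2 of the 8 smooth muscle genes were higher and 5 lower, 0 and 6 of the 8 endothelial genes, 6 and 2 of the 9 fibroblast genes, and 2 and 6 of the 8 atrial genes. Of 7 neuron and Schwann cell genes, 1 was higher and 5 were lower, and Chat and Slc18a3 were at 0 in all BPVB libraries. Of the 4 tested airway genes, the club cell gene Scgb1a1 was higher, with a mean of 25.4 against 4.07 FPKM (log2 fold change 2.52), and Tppp3 was lower (-0.67). The airway genes Scgb3a2, Foxj1 and Krt5, at 0 in all BPVB libraries, had sham means of 0.038, 0.012 and 0.034 FPKM. Of the tested mesothelial genes, 1 of 5 was higher and 3 lower. The counts were 2 and 0 of 4 for cartilage, 1 and 1 of 3 for tendon and 1 and 1 of 5 for skeletal muscle. Alveolar type 2 genes, reported with Spp1, were also expressed in each library, with summed FPKM of 552 to 598 against 61.5 to 63.0. In its single-cell data, the paper left out epithelial cells as likely derived from lung parenchyma. The part of a changed cell makeup, or of lung tissue taken with the veins, in the values of the 10 genes was not tested.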

How the data were processed

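Bulk RNA-seq of the PVs of 3 BPVB and 3 sham-operated rats was used. Groups came from the sample titles. The sample labels and the paper describe banding of the pulmonary vein, whereas the series' design text calls the banded group PAB, an abbreviation it does not explain. Libraries were paired-end. The authors used fastp for cleaning, HISAT for mapping and HTSeq-count for counting, and deposited FPKM for each gene and rat. The submitters' processing notes name HISAT2 2.0.5, StringTie 1.3.3b, featureCounts 1.5.0-p3 and DESeq2 1.20.0 instead. The labels and the paper also name different library kits. Genome build, annotation and strand setting are not given in the sources used here, so overlapping or antisense genes cannot be separated. Between libraries, FPKM is scaled by the library total alone.

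The deposited FPKM of each gene were whole multiples of a step per library for 17833 of 17833 genes (100%, none further than 1.16e-10 from a whole number), and the smallest such numbers were taken as fragments. Library totals (26078189 to 29725808 in the BPVB group, 23439506 to 23821184 in the sham group) came from the same steps. Each of the 10 genes had at least 93 fragments in every library. Whether fragments are separate molecules is unknown. limma 3.58.1 in R 4.3.3 (lmFit, eBayes with trend) was run on log2(FPKM + 0.5) for genes whose mean FPKM reached 0.1. The pseudocount lowers the fold change of weakly expressed genes. Pair ratios were compared by exact permutation tests in scipy 1.17.1 and adjusted over the 7 pairs. The recovery and the limma fit were tested on simulated data. The rats were selected at random for RNA-seq by the study's methods, and all 6 libraries entered as samples of their own. As a check for a library deposited more than once, the fragments of each pair within a group were compared. Mean chi-square per gene was 4.97 to 5.93, where repeats of 1 library would give about 1, and no pair was merged. This check cannot tell libraries of separate rats from separate libraries of 1 pooled or split sample. The standard errors and adjusted p rest on the spread within groups, with an SD as low as 0.633% of the mean (Sparc, sham group).

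The 10 genes and the gene lists were chosen with earlier results of these data known. Named genes are the 10 genes, DEGs of the lists, and the largest rise and fall with a call in each list. Family members of the CCN, thrombospondin, tenascin and SPARC groups, receptors and regulators without a call, Itgb6, Yap1, Tgfb1, Atf3 and marker genes were named after their values were seen. Genes most like a gene in profile had the smallest Euclidean distance of centred log2(FPKM + 0.5) over the 6 libraries. Promoter sequences came from RefSeq (GRCr8), matched by symbol and gene number. Tnxb, Marco, Matn1 and Myh4 of the lists were not analysed here. Of the columns with values of single samples, 0 stayed unused. Alternatives were pseudocounts of 0.1 and 1, 2 other filters, 3 other scalings, robust eBayes, a block for the replicate number, limma-voom on the recovered fragments, the study's DEG thresholds and each library left out in turn.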

Additional observations from a re-analysis of the deposited data

How the results depend on the processing

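Each of the 10 genes kept its direction and an adjusted p under 0.05 (limma) in all 16 alternatives that refit the model. The 8 higher and 2 lower calls became 1 and 0 with the study's DEG thresholds, and the 17 and 6 calls among the other matricellular genes became 4 and 2. The largest adjusted p was that of Thbs4 without sham replicate 3 (0.0495), and its log2 fold change ranged from 0.34 to 0.52. Spp1 ranged from 2.45 to 2.81, Tnc from -0.85 to -0.69 and Ccn1 from -0.69 to -0.61. Thbs1 ranged from 0.93 to 1.01 and passed the DEG threshold of 1 with TPM scaling and without sham replicate 1 or sham replicate 2. Among the other named genes, checked after seeing the data, Spock1 lost its call with the replicate block (adjusted p = 0.056, limma), and Sdc1 also lost it there (0.076), with TPM scaling (0.112), without a filter (0.056), with a pseudocount of 0.1 (0.051) and with robust eBayes (0.053). Cav1 lost its call with quantile normalization (0.14). Values near 0 changed sign for genes without a call, Itga5 with TPM scaling (0.019), Itga9 with quantile normalization (-0.047) and Wwtr1 with median-of-ratios scaling (-0.0027). With libraries left out, Itga5 ranged from -0.051 to 0.0089, Itga9 from -0.036 to 0.061, Cd44 from 0.0099 to 0.083 and Wwtr1 from -0.038 to 0.082. Spon2 fell short of the DEG threshold with a pseudocount of 1 (0.99), and Ccn4, Spock1, Fosl1 and Itgb6 passed it with a pseudocount of 0.1 and with limma-voom, by which Spock1 reached -3.56 and Ccn6, still without a call, -2.41. Without a call in any alternative, Thbs3 ranged from 0.043 (without BPVB replicate 1) to 0.17 (without BPVB replicate 2) and Comp from 0.20 (without BPVB replicate 1) to 0.97 (limma-voom). With each library left out in turn, the counts of the 10 genes stayed at 8 and 2, and the other matricellular genes had 15 to 17 higher and 4 to 5 lower. The differences in the pair ratios kept their sign, and that of Thbs4 to Thbs2 ranged from 0.0023 to 0.21. The replicate numbers did not pair the samples, as the correlations of same-numbered libraries were 0.025, 0.014 and 0.015. With the replicate number as a block, the counts were 8 higher and 2 lower among the 10 genes, 16 and 5 among the other matricellular genes, and 2466 and 2073 over all genes, against 2605 and 2170 without it. Over all genes, the 340 higher and 156 lower DEGs became 611 and 290 when the pseudocount was 0.1, 227 and 98 when it was 1, and 687 and 370 with limma-voom on the recovered fragments. Every scaling moved the median of all genes by less than 0.1 on the log2 scale. The calls over all genes were 3000 higher and 1888 lower by TPM, 2362 and 2454 by median-of-ratios and 2354 and 2434 by quantile normalization. Lower calls thus outnumbered higher calls both with median-of-ratios and with quantile normalization. With 3 rats per group, the number of libraries limits the precision of each comparison, and groups of 3 were not tested for outlying libraries.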
